A study of Homo sapiens with 17 samples.

Results

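The collagens and the genes that build, fold and crosslink fibrous extracellular matrix were followed in BJ cells, human foreskin fibroblasts immortalized with the telomerase catalytic subunit (hTERT). Members were every gene whose symbol has the form of a collagen chain, which gave 25 collagens, plus 28 of 30 listed matrix genes. Together they made 53 matrix genes of 9699 genes in the table: 25 collagens, 10 processing or crosslinking genes, 12 glycoproteins (elastic fibre components included) and 6 proteoglycans. The 10 are called enzymes here, although SERPINH1 is a chaperone and PCOLCE an enhancer of an enzyme. POSTN and NID2, the other two on the list, were not analysed here.

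Transcript level was measured by RNA-Seq and ribosome occupancy by Ribo-Seq, the sequencing of ribosome-protected fragments, in 9 RNA-Seq and 8 Ribo-Seq samples of 5 conditions. Proliferating cells grew in 10% serum and quiescent cells (Q) were depleted of serum. Pre-senescent (preS) and senescent (S) cells carried a tamoxifen-inducible RASG12V and were kept in tamoxifen for 5 and 14 days. Transformed cells (Tr) carried RASG12V with SV40 small T and stable knockdowns that included p16INK4A. All conditions shared the hTERT background of BJ cells, so they did not stand for separate donors. The constructs differed as given above, so the conditions were not all states of 1 engineered line. Levels were in FPKM, fragments scaled to transcript length and to the total of mapped reads, and every value below 1.0 had been set to 1.0, called the floor here. A ratio with 1 side at the floor is therefore a lower bound.

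The table gave 6 columns an assay. Run 1 held the proliferating column C12 with Q and preS, and run 2 held the proliferating column C3 with S and Tr. Of the 12 columns, 5 joined 2 samples each and the other 7 were single samples, so that no condition had replicate columns within a run. No p-value can be given for any change. Each condition was compared with the proliferating column of its own run, as the study did, and a gene was called when the levels differed at least 2-fold. The share of all tested genes called the same way is given as background, and the difference between C3 and C12 is given as the spread between proliferating columns. That difference holds the sequencing run as well as the culture, and the study reported a batch effect of the run. Its RNA-Seq libraries of run 1 were paired-end and those of run 2 were not. The part of each in the difference was not tested. Genes entered the counts with a mean of at least 2 FPKM over the columns of the assay, which 48 matrix genes passed at the RNA level and 49 at the Ribo-Seq level. COL14A1, COL24A1, COL4A6, COL8A2 and FMOD were too low in RNA, and COL14A1 and COL24A1 lay at the floor in all 6 RNA columns.

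The columns were checked with genes of known behaviour. MKI67, a proliferation marker, was at the floor in S in both assays and between 29.2 and 73.9 FPKM in the other RNA columns. This bears on a conflict in the labels, where the Ribo-Seq samples titled S and C3 carry each other's condition tag: MKI67 in Ribo-Seq was 1.00 FPKM in the sample titled S and 43.0 FPKM in the sample titled C3, and samples were grouped by title. CDKN2A RNA was 12.6 FPKM in Tr, above the 6.75 of C3 and below the 14.2 to 30.6 FPKM of the other 4 columns, and its Ribo-Seq level was lowest in Tr, at 5.51 FPKM against 6.33 to 33.0 elsewhere. HRAS RNA lay between 312 and 2415 FPKM and did not separate the RASG12V columns from the controls. All 8 listed fibroblast markers were in the table. Of the other cell types, 1 of 5 epithelial, 0 of 4 endothelial, 2 of 3 immune and 0 of 2 smooth muscle markers were in it. The epithelial marker, KRT19, reached 39.8 FPKM of RNA in C3 and 1.00 to 4.43 FPKM in the other columns, and its part in the results against C3 was not tested.

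Fibrillar collagens form the tensile fibres of connective tissue, with type I collagen, assembled from COL1A1 and COL1A2 chains, as the main product of dermal fibroblasts. Procollagen chains are hydroxylated on prolines and lysines and chaperoned in the endoplasmic reticulum, trimmed outside the cell and then crosslinked by lysyl oxidases. Collagens IV and VI, glycoproteins such as fibronectin and small leucine-rich proteoglycans such as decorin link the fibres to basement membranes and cells.

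The matrix genes together held 1.54% of the summed RNA FPKM of column C12, 1.68% in Q and 0.913% in preS. In run 2 they held 3.06% in C3, 1.06% in S and 2.86% in Tr. Their share of the Ribo-Seq sum was 1.63% in C12, 2.88% in Q and 1.53% in preS, and 3.71% in C3, 2.01% in S and 2.74% in Tr. The matrix share was thus lowest in preS in both assays and highest in C3, and the proliferating columns differed from each other as much as several conditions differed from their controls. In such bulk samples fewer cells that express a gene and less RNA per cell cannot be told apart.

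COL1A1 RNA stood at 371 FPKM in C12, 345 in Q and 150.1 in preS, and at 1328 in C3, 51.6 in S and 762 in Tr. COL1A2 RNA stood at 384 FPKM in C12, 500.2 in Q and 219 in preS, and at 1611 in C3, 531 in S and 766 in Tr. The chains had similar RNA levels in every column except S, where COL1A1 was the lowest of its 6 columns and COL1A2 was above its levels in C12, Q and preS. The ratio of COL1A1 to COL1A2 RNA was 0.966 in C12, 0.69 in Q, 0.686 in preS, 0.824 in C3 and 0.994 in Tr, but 0.0971 in S. At the Ribo-Seq level the ratio was 0.748 in C12, 0.717 in Q, 0.392 in preS, 0.885 in C3 and 0.802 in Tr, and 0.0697 in S. The ratio in S was below that of all the other columns in both assays, so the imbalance of the type I chains did not depend on which proliferating column was used.

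**Figure D1:**
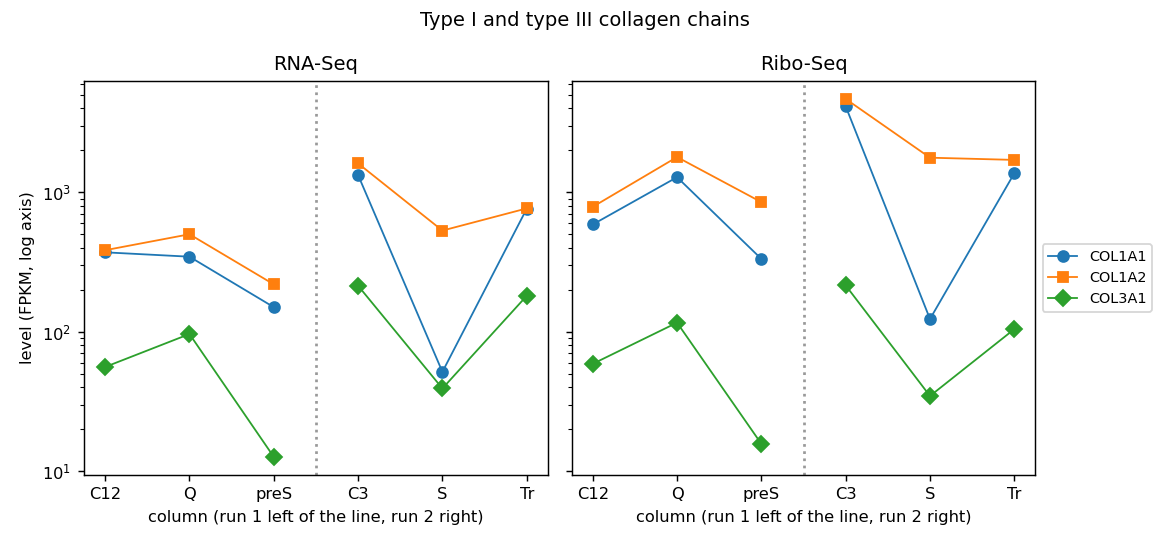
Levels of the chains of collagens I and III in FPKM (y, log axis) in each column (x), RNA-Seq on the left and Ribo-Seq on the right, with 1 point a column and lines joining the columns of a run. In S the type I chains lie furthest apart, with COL1A1 RNA at 51.6 FPKM and COL1A2 RNA at 531 FPKM, and in the Ribo-Seq panel they also part in preS, at 333 and 849.9 FPKM.

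In ribosome footprints COL1A1 had 588 FPKM in C12, 1283 in Q and 333 in preS, and 4134 in C3, 123 in S and 1369 in Tr. Footprints on COL1A2 reached 786 FPKM in C12, 1789 in Q and 849.9 in preS, and 4670.3 in C3, 1770.3 in S and 1707 in Tr. COL1A1 RNA was 25.8-fold lower in S than in C3 and 7.2-fold lower than in C12, and its Ribo-Seq level was 33.5-fold and 4.76-fold lower. COL1A2 RNA was 3.03-fold lower in S than in C3 but 1.38-fold higher than in C12. For COL1A2 the direction in S therefore turned on the control, and the controls themselves differed 4.19-fold in its RNA.

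COL3A1, the chain of type III collagen that forms thin fibres with type I, had 55.9 FPKM of RNA in C12, 96.3 in Q and 12.7 in preS, and 214 in C3, 39.2 in S and 181 in Tr. Its Ribo-Seq levels were 58.9, 116 and 15.7 FPKM in C12, Q and preS, and 215, 34.6 and 104 FPKM in C3, S and Tr. COL3A1 RNA was 4.41-fold lower in preS than in C12 and 5.45-fold lower in S than in C3, though only 1.43-fold lower in S than in C12. Among the minor fibrillar chains, which co-assemble with types I and II, COL11A1 moved the other way in S. COL11A1 RNA was 16.3 FPKM in C12, 10.25 in Q and 9.02 in preS, and 9.94 in C3, 21.95 in S and 6.20 in Tr. Its Ribo-Seq level was 78.6 FPKM in S, above the 16.7 to 30.0 FPKM of the other 5 columns, which made S 3.12-fold higher than C3 and 2.62-fold higher than C12. COL5A3 RNA was 1.57 FPKM in C12, 4.60 in Q and 1.35 in preS, and 12.8 in C3, 2.31 in S and 26.75 in Tr, a gene that differed 8.18-fold between the proliferating columns.

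COL10A1, a network-forming collagen known from hypertrophic cartilage, had the largest increase of any matrix gene in S and Tr. COL10A1 RNA was 1.67 FPKM in C12, 3.97 in Q and 10.6 in preS, and at the floor in C3, 24.4 in S and 19.6 in Tr. Its footprints measured 4.83 FPKM in C12, 9.90 in Q and 32.6 in preS, and 1.78 in C3, 96.7 in S and 60.05 in Tr. All 4 conditions lay above both proliferating columns in both assays. The RNA was 2.38-fold higher in Q and 6.35-fold higher in preS than in C12, and at least 24.4-fold higher in S and at least 19.6-fold higher in Tr than in C3. No other matrix gene was called higher against both proliferating columns in all 4 conditions.

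Of collagen IV, the network of basement membranes, the chains COL4A1 and COL4A2 were low in Q, preS and S. COL4A1 RNA was 33.3 FPKM in C12, 16.3 in Q and 12.1 in preS, and 92.5 in C3, 23.0 in S and 122 in Tr. COL4A2 RNA was 67.3 FPKM in C12, 33.3 in Q and 27.2 in preS, and 152 in C3, 27.1 in S and 187 in Tr. The chains changed side by side, 2.04-fold and 2.02-fold lower in Q, 2.75-fold and 2.48-fold lower in preS and 4.02-fold and 5.61-fold lower in S, each against its own run. In Q the lower RNA was not matched by footprints, with COL4A1 at 64.5 FPKM against 88.4 and COL4A2 at 127 against 150.3, which are 1.37-fold and 1.18-fold lower. COL4A5 RNA stayed at or below 5.42 FPKM but lay above the control of the run in Q, preS and S. Its footprints were 11.6 FPKM in Q and 18.3 in preS against 4.56 in C12, and 8.92 in S against 3.47 in C3. In Q and preS these were at least 2-fold higher than in both proliferating columns. COL18A1, a basement membrane multiplexin, had RNA levels of 62.5 FPKM in C12, 37.1 in Q and 35.3 in preS, and 121 in C3, 31.4 in S and 119 in Tr.

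The COL4A1 and COL4A2 genes lie head to head, and their listed transcript starts are 127 bases apart on chromosome 13. Of the 53 matrix genes 39 matched the RefSeq promoter table (GRCh38.p14), 32 of them with a single promoter. The 30 bases from 40 to 11 before the start, where a TATA box usually lies, are shown for the pair, which changed together, for FN1 and THBS2, called lower in S against both proliferating columns, and for P4HA1 and PLOD2, called higher in S against both at the Ribo-Seq level. COL6A2 and COL6A3 are shown because their RNA changes in Tr differed. Capitals mark TATAA on either strand, and in P4HA1 the forward and reverse matches overlap.
COL4A1, chr13:110307168-110307197, minus strand: ggcagcgccaacaaattggggagctcggcc
COL4A2, chr13:110307244-110307273, plus strand: ctgcggcgcgggtaagaggcggcgggagcg
COL6A2, chr21:46098072-46098101, plus strand: gggcggggTATAAagggggcggcgccggcc
COL6A3, chr2:237414175-237414204, minus strand: ccctgactggtatccctggccccagtccag
FN1, chr2:215436079-215436108, minus strand: gggaccgtcccaTATAAgccccggctcccg
THBS2, chr6:169253857-169253886, minus strand: gagaagcggcaTATAAagccgcgctgcccg
P4HA1, chr10:73096877-73096906, minus strand: ggcctagaggTTATAAaagggctaacgggc
PLOD2, chr3:146161195-146161224, minus strand: tcggggagccTATAAggcctccgcagcgcc
TATAA stood in this window in 7 of the 32 matrix promoters (21.9%) and in 199 of 5132 promoters of genes in the table with a single promoter (3.88%). The letters ACGTG, on either strand of the 250 bases before the start, were in 6 of 32 (18.8%) and in 1316 of 5132 (25.6%), with P4HA1, PLOD2 and THBS2 among the 6. The windows shown were picked by hand for the changes of their genes given above. Most other genes called in S against both proliferating columns are not shown. The TATAA matches among them therefore do not represent the set, and a link of TATAA to the change in S was not tested. These are matches of letters and carry no information on what binds there.

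Collagen VI, which forms beaded microfilaments around cells, was highest in Tr. COL6A1 RNA was 241 FPKM in C12, 349.7 in Q and 192 in preS, and 463 in C3, 148 in S and 1429 in Tr. COL6A2 RNA was 449.6 FPKM in C12, 652 in Q and 302 in preS, and 796 in C3, 201 in S and 2308 in Tr. COL6A3 RNA was 410.4 FPKM in C12, 457 in Q and 301 in preS, and 549 in C3, 83.35 in S and 668 in Tr. In Tr, COL6A1 and COL6A2 were 3.09-fold and 2.9-fold higher than in C3 and 5.93-fold and 5.13-fold higher than in C12, whereas COL6A3 was 1.22-fold and 1.63-fold higher. The ratio of COL6A3 to COL6A2 RNA was accordingly 0.289 in Tr against 0.689 in C3 and 0.913 in C12, and S was also low at 0.415. At the Ribo-Seq level this ratio was 0.493 in Tr, 0.94 in C3 and 0.836 in S, so that in S it was close to the control. All 3 chains were lower in S than in C3, by 3.12-fold for COL6A1, 3.96-fold for COL6A2 and 6.58-fold for COL6A3.

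COL7A1, the collagen of the anchoring fibrils that fasten epidermis to dermis, had 7.78 FPKM of RNA in C12, 7.74 in Q and 12.4 in preS, and 21.0 in C3, 13.8 in S and 74.9 in Tr. Its footprints were 3.98 FPKM in C12, 7.01 in Q and 11.8 in preS, and 32.3 in C3, 9.33 in S and 68.2 in Tr. COL7A1 RNA was 3.56-fold higher in Tr than in C3, and its Ribo-Seq level was 2.11-fold higher. The other non-fibrillar collagens were mostly lower in S: COL12A1 and COL16A1, which sit on the surface of fibrils, were 3.28-fold and 4.99-fold lower in RNA than in C3, and the transmembrane COL13A1 was 2.81-fold lower. COL12A1 footprints in S, at 159 FPKM, were below the 244 of C3 but close to the 156 of C12. Those of COL16A1 (9.73 FPKM) and COL13A1 (19.7 FPKM) in S lay below both proliferating columns.

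Of the 10 genes grouped as enzymes, 5 had a higher and 5 a lower RNA level in S than in C3. Among them 1 was called lower, where 13.2% of all tested genes were. P4HA1 and P4HA2, catalytic subunits of prolyl 4-hydroxylase, were both highest in S. P4HA1 RNA was 34.75 FPKM in C12, 61.5 in Q and 38.7 in preS, and 109 in C3, 148 in S and 47.9 in Tr. P4HA2 RNA was 34.4 FPKM in C12, 47.4 in Q and 39.8 in preS, and 69.65 in C3, 90.8 in S and 45.95 in Tr. These RNA differences between S and C3 stayed below 2-fold, but in footprints P4HA1 had 625 FPKM in S against 268 in C3 and 121 in C12, and P4HA2 had 487 against 288 and 163. P4HA1 thus exceeded COL1A1 in S, with ratios of 2.88 in RNA and 5.07 in Ribo-Seq, against ratios of 0.0629 to 0.258 and 0.0648 to 0.379 in the other 5 columns.

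PLOD2, the lysyl hydroxylase that acts on collagen telopeptides, had 78.9 FPKM of RNA in C12, 57.5 in Q and 58.7 in preS, and 70.9 in C3, 154 in S and 70.55 in Tr. Its footprints were 156 FPKM in C12, 102 in Q and 108 in preS, and 155 in C3, 591 in S and 183 in Tr. PLOD2 was close to equal in the proliferating columns, and S stood above all the other columns, 2.18-fold higher than C3 in RNA and 3.82-fold higher in Ribo-Seq. The related PLOD1 differed 1.03-fold in RNA and 1.53-fold in Ribo-Seq between S and C3, and the ratio of PLOD2 to PLOD1 footprints was 1.47 in S against 0.255 to 0.675 in the other columns.

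LOX, the lysyl oxidase that starts crosslinking, had 52.0 FPKM of RNA in C12, 77.9 in Q and 42.9 in preS, and 178 in C3, 208 in S and 39.4 in Tr. LOX footprints were 185 FPKM in C12, 311 in Q and 176 in preS, and 560.4 in C3, 988 in S and 129.9 in Tr. LOX RNA was 4.52-fold lower in Tr than in C3 but only 1.32-fold lower than in C12, with the proliferating columns 3.42-fold apart. SERPINH1, the collagen chaperone HSP47, had 137 FPKM of RNA in C12, 152 in Q and 106 in preS, and 187 in C3, 103 in S and 116 in Tr. Its Ribo-Seq levels were 610.3, 808 and 557 FPKM in C12, Q and preS, and 674, 562 and 379 FPKM in C3, S and Tr, and it was not called in any condition against the control of its run. LOXL1, LOXL2 and BMP1 were also lower in RNA in S than in C3, by 1.69-fold, 1.8-fold and 1.66-fold. Against C12, LOXL1 was again lower in S (52.8 against 63.8 FPKM). LOXL2 (234 against 192 FPKM) and BMP1 (11.25 against 8.05 FPKM) were higher, so their direction turned on the control. PCOLCE, which enhances removal of the C-propeptide and is not itself an enzyme, was the member of this group called lower in S. Its RNA was 183 FPKM in C12, 259 in Q and 129.5 in preS, and 255 in C3, 40.35 in S and 157 in Tr.

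**Figure D2:**
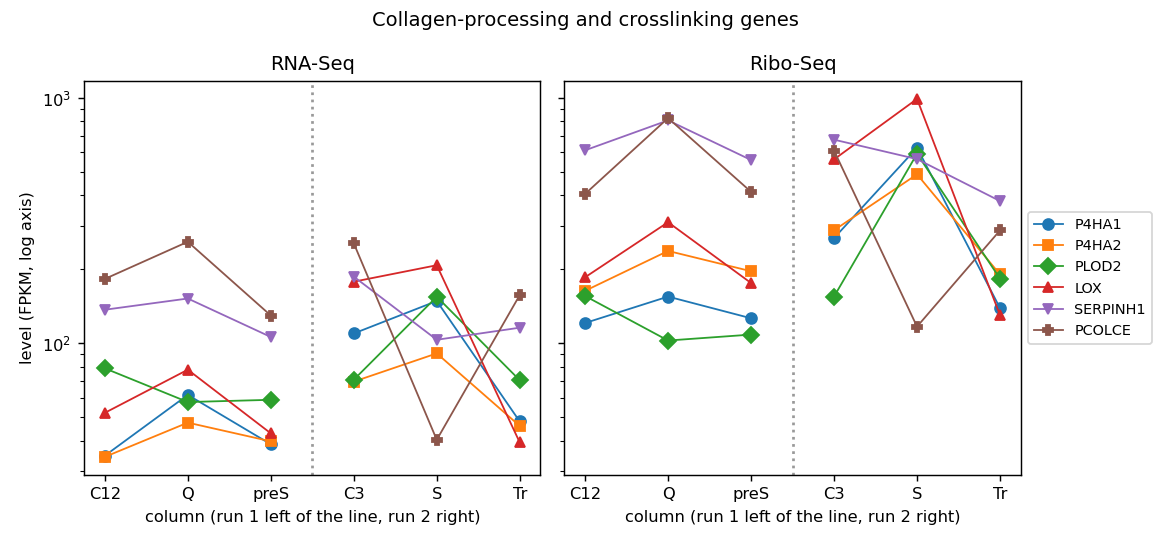
Levels of 6 collagen-processing and crosslinking genes in FPKM (y, log axis) in each column (x), RNA-Seq on the left and Ribo-Seq on the right, with 1 point a column and lines joining the columns of a run. In the Ribo-Seq panel P4HA1, P4HA2, PLOD2 and LOX reach 487 to 988 FPKM in S, their highest columns, while PCOLCE is lowest there at 117 FPKM.

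A further 15 genes of collagen folding, trimming and crosslinking were in the table, and 13 passed the filter. In S, 1 of the 13 was called higher in RNA than in C3 and 4 were called lower, against 6.94% and 13.2% of all tested genes, and with C12 as control 2 and 2 were (11.8% and 17.9%). The gene called higher was LEPREL1, a prolyl 3-hydroxylase, at 110.3 FPKM in S against 20.1 in C3 and 15.8 in C12. ADAMTS2, the procollagen N-proteinase, was lower at 3.40 against 26.5 FPKM, as were the lysyl oxidases LOXL3 (5.18 against 22.6 FPKM) and LOXL4 (18.4 against 41.9 FPKM) and the chaperone FKBP10 (115 against 276 FPKM). The direction for LOXL4 turned with the control, since its RNA in C12 was 7.78 FPKM, and FKBP10 in S was only 1.31-fold lower than in C12. Footprints gave 3 higher and 2 lower of the 13 against C3 (11.1% and 17.0%) and 6 and 3 against C12 (18.2% and 23.7%). LOXL4 RNA was 30.6 FPKM in Q, 3.94-fold higher than in C12 but below C3, and 4.15 FPKM in Tr, below both.

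Among the glycoproteins, FN1, which encodes fibronectin, had 915 FPKM of RNA in C12, 748 in Q and 577 in preS, and 722 in C3, 259.9 in S and 370.2 in Tr. FN1 footprints were 761 FPKM in C12, 931 in Q and 608 in preS, and 874 in C3, 511 in S and 452 in Tr. The proliferating columns were close for FN1, 1.27-fold apart in RNA. FN1 RNA in S was 2.78-fold lower than C3 and 3.52-fold lower than C12. The Ribo-Seq difference was smaller, 1.71-fold against C3 and 1.49-fold against C12. SPARC, a collagen-binding matricellular protein, had 330.1 FPKM of RNA in C12, 410.2 in Q and 239 in preS, and 893 in C3, 848 in S and 537 in Tr. Its footprints were 1453, 2114 and 1166 FPKM in C12, Q and preS, and 3809.9, 4471 and 2377 FPKM in C3, S and Tr, so that SPARC in S was within 1.17-fold of C3 in both assays.

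THBS1, a thrombospondin, was low in S, as most collagens were. THBS1 RNA was 415 FPKM in C12, 303 in Q and 158 in preS, and 805 in C3, 91.8 in S and 419 in Tr, 8.78-fold lower in S than in C3 and 4.52-fold lower than in C12. THBS2 RNA was 5.66-fold lower in S than in C3, and TNC, the adhesion-modulating tenascin, 1.71-fold lower. TNC footprints did not follow, with 252 FPKM in S against 254 in C3 and 179 in C12. Those of THBS2 did, with 14.6 FPKM in S against 59.85 in C3 and 33.8 in C12. Of the elastic fibre genes, FBN1 RNA, for the main microfibril protein, was 102 FPKM in C12 and 104 in C3 against 44.6 in S and 50.5 in Tr. FBN1 footprints in S, at 179 FPKM, lay between the 144 of C12 and the 202 of C3, and those in Tr, at 113, below both. ELN RNA was at the floor in every column except C3, at 8.52 FPKM, so its passing of the filter and its calls rested on C3 alone. MFAP5 RNA was above the floor in C3 (13.7 FPKM) and S (8.48 FPKM) and in no other column.

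The small leucine-rich proteoglycans DCN and LUM, which bind collagen fibrils and limit their width, were higher in Q and lower in the 3 RASG12V conditions than in the control of the run. DCN RNA was 27.6 FPKM in C12, 82.6 in Q and 3.68 in preS, and 164 in C3, 11.3 in S and 15.5 in Tr. LUM RNA was 33.55 FPKM in C12, 101 in Q and 5.38 in preS, and 155 in C3, 20.6 in S and 13.3 in Tr. Both therefore differed 5.95-fold and 4.61-fold between the proliferating columns. Against C12, DCN was 2.99-fold higher in Q and 7.5-fold lower in preS, and LUM was 3.02-fold higher and 6.24-fold lower. C3, however, lay above Q for both genes, so the higher level in Q held against C12 only. LUM footprints in S were 166 FPKM, below the 922 of C3 but above the 89.9 of C12, so their direction turned on the control. Those of DCN in S, 45.7 FPKM, lay below both (396 in C3 and 64.85 in C12). Against C3, DCN was 14.5-fold lower in S and 10.6-fold lower in Tr. BGN, a related proteoglycan, was 64.2 FPKM in C12, 15.99 in preS and 16.5 in S, but 152 in Tr against 143 in C3. HSPG2, the basement membrane proteoglycan perlecan, had nearly equal RNA in the proliferating columns, 34.7 FPKM in C12 and 35.3 in C3, and was lower in preS (14.0 FPKM), S (9.12 FPKM) and Tr (10.7 FPKM).

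Over the 48 matrix genes that passed the filter, RNA in Q was called higher for 5 and lower for 2, with 3.99% of all tested genes called higher and 2.43% lower. In preS 1 was called higher and 12 lower, against 1.75% and 2.0% of all tested genes. Against C3, 4 were called higher and 27 lower in S, where 6.94% and 13.2% of all tested genes were, and 5 higher and 13 lower in Tr, where 4.49% and 5.2% were. The median log2 change in RNA of the matrix genes was 0.15 in Q, -0.55 in preS, -1.48 in S and -0.31 in Tr, beside -0.01, 0.04, -0.01 and 0.09 over all tested genes. C3 itself was called higher than C12 for 21 of the 48 and lower for 1, with 4.69% and 3.05% of all tested genes, and a median log2 difference of 0.92. The median difference between the proliferating columns was thus larger than the median change in Q, preS or Tr and smaller than that in S.

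**Figure D3:**
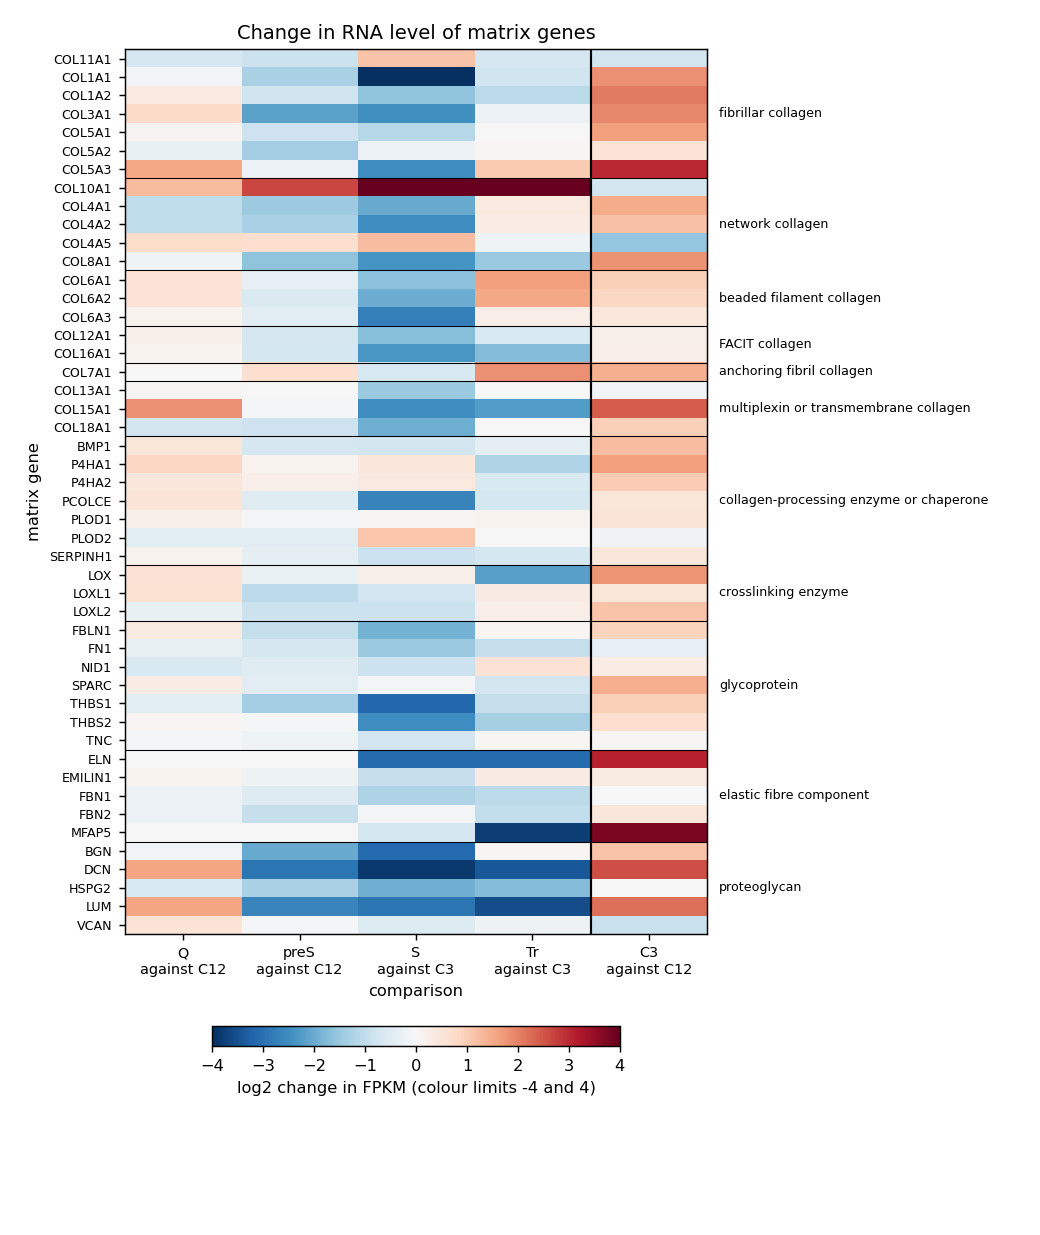
Log2 change in RNA level (colour, limits -4 and 4) of the 48 matrix genes that passed the filter (rows, ordered by role) in 4 conditions against the proliferating column of their run and, right of the line, in C3 against C12. Blue dominates the column for S, in which 27 genes were at least 2-fold lower, and red the column for C3, in which 21 were at least 2-fold higher than in C12.

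By role, the median log2 RNA change in S against C3 was -1.95 for 21 collagens, -2.91 for 5 proteoglycans, -1.07 for 12 glycoproteins and -0.34 for 10 enzymes. Collagens numbered 3 called higher and 16 lower, and enzymes 1 and 1. Against C12 the medians were -0.54 for collagens and 0.52 for enzymes, so that the enzymes lay above the collagens as a whole with either control. The 7 fibrillar collagens had a median of -1.6 against C3. Against C12 theirs was 0.43, close to that of the enzymes, with 5 above 0 and 2 below. In preS the collagens had a median of -0.7 and the enzymes -0.4.

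Calls that hold against both proliferating columns do not rest on the difference between them. In S, 15 of the 48 were at least 2-fold lower in RNA than both: COL1A1, COL4A2, COL6A2, COL6A3, COL12A1, COL13A1, COL16A1, FN1, FBN1, THBS1, THBS2, PCOLCE, BGN, DCN and HSPG2. Over all tested genes 10.5% were. COL10A1 alone was higher in RNA than both, with 5.25% of all tested genes. At the Ribo-Seq level 4 were higher than both in S (COL10A1, COL11A1, P4HA1 and PLOD2) and 10 lower, against 8.56% and 12.7%. In Tr, COL5A3, COL6A1, COL6A2, COL7A1 and COL10A1 were higher in RNA than both (background 2.83%), and COL16A1, FBN1, HSPG2 and LUM lower (2.38%). In preS 12 were lower than both (1.35%), and all 12 were those called against C12. C3 lay above C12 in RNA for each of these 12, so the call against C12 fixed the call against C3. In Q only COL4A1 and COL4A2 were lower than both (0.728%), and COL10A1 higher (1.81%). Footprints in Tr put 4 above both and 3 below (3.09% and 3.67%), in preS 2 and 8 (2.91% and 6.28%) and in Q 3 and 0 (3.13% and 3.36%).

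Set against the proliferating column of the other run, the counts moved with the control. In RNA, 3 of the 48 were called higher and 17 lower in Q (4.44% and 3.94% of all tested genes), 2 and 28 in preS (5.13% and 6.48%), 6 and 16 in S (11.8% and 17.9%) and 12 and 8 in Tr (5.88% and 4.66%). In Ribo-Seq the counts over 49 were 4 and 13 in Q (9.17% and 11.2%), 3 and 26 in preS (9.16% and 15.3%), 13 and 10 in S (18.2% and 23.7%) and 15 and 3 in Tr (10.8% and 10.6%).

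**Figure D4:**
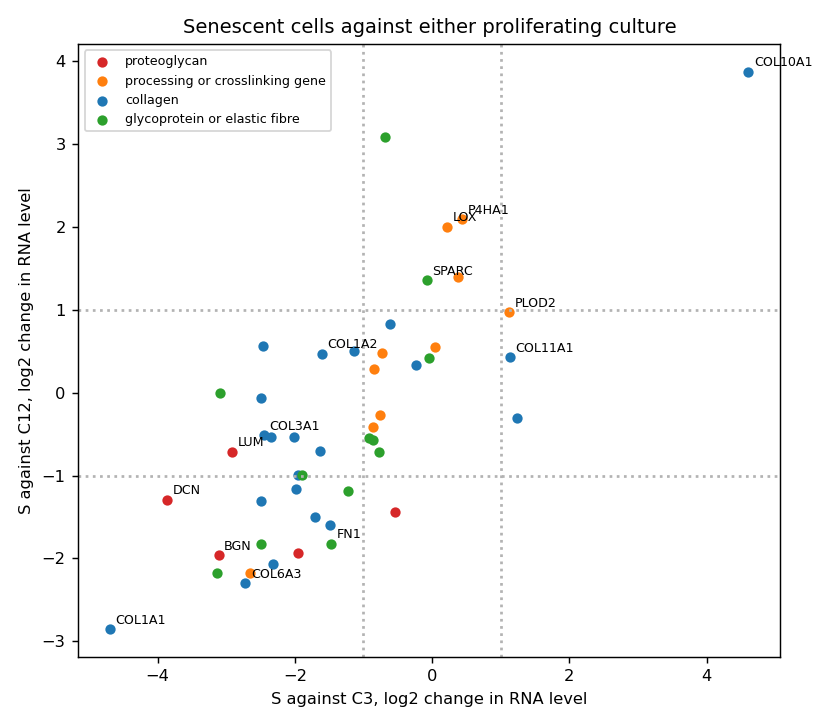
Log2 change in RNA level of S against C3 (x) and against C12 (y), 1 point a matrix gene that passed the filter, coloured by group, with dotted lines at 2-fold. COL1A1 lies lowest on both axes, at -4.69 and -2.85, COL10A1 highest, and COL1A2 is negative against C3 and positive against C12.

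Tr was also set directly against S, its neighbour in run 2. RNA was at least 2-fold higher in Tr for 22 of the 48 and lower for 6, with 15.1% and 8.05% of all tested genes called. COL1A1 was 14.8-fold higher, COL6A2 11.5-fold and BGN 9.19-fold. Those lower in Tr included LOX by 5.27-fold, P4HA1 by 3.1-fold and PLOD2 by 2.19-fold. Tr thus had more COL1A1 and less P4HA1, PLOD2 and LOX than S.

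Footprints and RNA changed with the same sign for 46 of 48 matrix genes in S and 41 in Tr, and for 36 in Q and 35 in preS. The counts in Q and preS include ELN, which lay at the floor and did not change in either assay. The share over all tested genes was not computed, so these counts do not set matrix genes apart. At the Ribo-Seq level 5 of 49 matrix genes were called higher and 26 lower in S (11.1% and 17.0% of all tested genes), and 4 and 16 in Tr (5.02% and 7.41%). In Q, however, 16 were called higher and 0 lower (8.98% and 8.13%), beside the 5 and 2 in RNA, and 10 of the 16 were collagens. In preS 4 were higher and 8 lower (6.88% and 10.4%), beside 1 and 12 in RNA. By role, the median log2 Ribo-Seq change in S was -1.76 for collagens and 0.17 for enzymes. C3 was called higher than C12 for 22 and lower for 1 at this level (10.3% and 8.29%). FMOD and ELN are among these 22 and among the genes called lower in S and Tr. Both passed the Ribo-Seq filter only through C3, at 11.7 and 20.6 FPKM, and were at most 1.2 FPKM in the other columns. Their calls therefore rest on C3 alone.

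Translation efficiency (TE), the log2 ratio of Ribo-Seq to RNA FPKM, was tested for 48 matrix genes and 8984 genes in all. It was at least 2-fold higher in Q for 6 matrix genes and lower for 0, against 3.43% and 3.82% of all tested genes. In preS it was higher for 4 and lower for 0 (5.09% and 8.6%), in S higher for 3 and lower for 3 (2.83% and 6.13%), and in Tr higher for 0 and lower for 3 (0.935% and 1.87%). C3 against C12 gave 6 higher and 0 lower (5.57% and 3.44%), as many as Q, with a median of 0.15. Several of these calls rest on levels at the floor: MFAP5 in Q, COL10A1, COL15A1 and ELN in S, and all 3 in Tr (COL4A5, ELN and MFAP5). Most changes were smaller than 2-fold but had the same sign. The TE change was above 0 for 42 of 48 in Q, 43 in preS and 40 in S, against 44.6%, 40.9% and 46.8% of all genes, and for 15 of 48 in Tr against 42.2%. The median change in TE was 0.51 in Q, 0.47 in preS, 0.45 in S and -0.17 in Tr, beside -0.06, -0.15, -0.05 and -0.07 over all tested genes. TE was above the control of the run in all 3 of Q, preS and S for 35 of 48 matrix genes (72.9%) and 1580 of 8984 genes (17.6%). Q and preS share C12, so these counts are not independent of each other. With the proliferating column of the other run the medians were 0.29 in Q, 0.28 in preS, 0.50 in S and 0.02 in Tr. TE calls, higher and lower, were then 3 and 2 in Q (2.93% and 6.57%), 3 and 3 in preS (4.83% and 12.2%), 13 and 0 in S (8.92% and 9.22%) and 1 and 0 in Tr (5.7% and 6.73%).

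**Figure D5:**
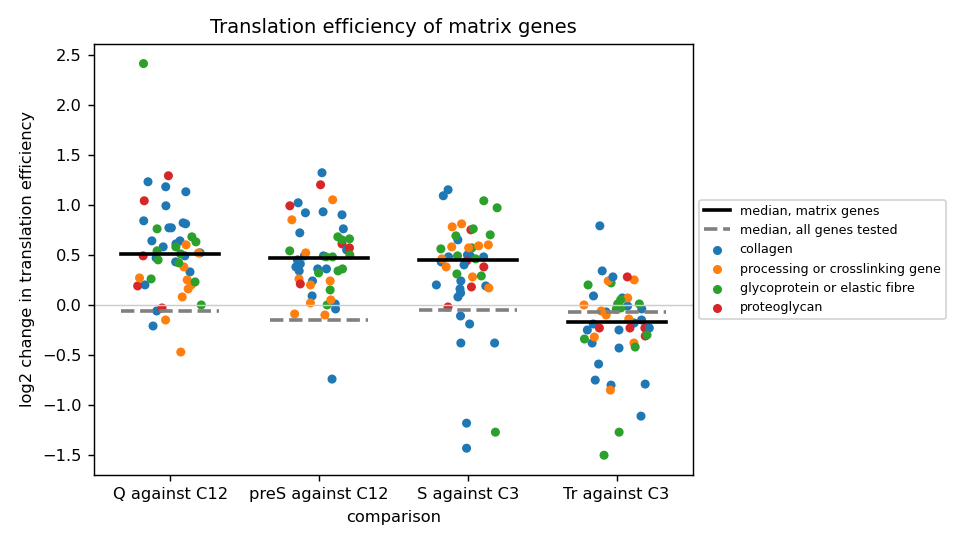
Log2 change in translation efficiency (y) of the matrix genes in each comparison (x), 1 point a gene that passed the filter, coloured by group, with the median of the matrix genes (solid) and of all genes tested (dashed). The medians of the matrix genes are 0.51, 0.47 and 0.45 in Q, preS and S and -0.17 in Tr.

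The level of TE shows the same order. The median matrix gene stood at percentile 65.4 of TE over all genes in C12 and at percentile 77.2 in C3. It stood at percentile 88.2 in Q, 87.3 in preS and 88.1 in S, and at 71.0 in Tr. Both proliferating columns and Tr therefore lay below Q, preS and S.

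Single genes with the largest TE changes came from several roles. In Q the TE of HSPG2 was 0.90 against -0.39 in C12 and 0.59 in C3. That of COL1A1 was 1.89 against 0.66 in C12 and 1.64 in C3. In preS BMP1, the C-proteinase of procollagen, had a TE of 0.96 against -0.09 in C12 and 0.63 in C3. COL5A1, a fibril-nucleating chain, had 1.33 against 0.31 in C12 and 1.14 in C3. These rises in Q and preS were therefore smaller against C3 than against C12. In S the TE of COL12A1 was 1.80 against 0.71 in C3 and 0.27 in C12, and COL12A1 and FBN1 were the only matrix genes at least 2-fold higher in TE than both proliferating columns (1.55% of all tested genes). COL10A1 TE was 1.99 in S and 1.62 in Tr against 0.83 in C3, where its RNA was at the floor and the TE a bound. In C12 the TE of COL10A1 was 1.53. In Tr the TE of COL12A1 was 1.05 against 0.71 in C3.

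The TE of P4HA1 was 1.33 in Q against 1.80 in C12, the lowest change of the named genes there, followed by COL10A1 at 1.32 against 1.53. In C3 the TE of P4HA1 was 1.29 and that of COL10A1 0.83, both below their values in Q. In preS PLOD2 (0.88 against 0.98) and P4HA1 (1.71 against 1.80) had the lowest changes, both small. In S the TE of COL7A1 was -0.56 against 0.62 in C3, but -0.97 in C12, and that of COL1A1 was 1.26 against 1.64 in C3 and 0.66 in C12. In Tr the TE of LOXL1, a lysyl oxidase of elastic fibres, was -1.79 against -0.94, and that of COL3A1 -0.79 against 0.01. The 10 enzymes all had a higher TE in S than in C3, with a median change of 0.57.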

How the data were processed

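The members and gene lists were chosen with earlier results of these data known. RNA-Seq and Ribo-Seq levels were used as deposited, in FPKM. Per the study's methods, the authors aligned reads with Bowtie to 1 representative protein-coding transcript a gene (Ensembl release 65). The version of Bowtie is not given in the sources used here, and the submitters' processing notes name hg19. The lowest value is 1.0, a floor set by the authors. It compresses the changes of low genes. No read counts were used, so the depth behind each value is unknown and no interval is given. Column sums of FPKM ran from 375110 to 416123 for RNA-Seq and from 647320 to 780289 for Ribo-Seq. Columns C12 and Q of both assays and preS of RNA-Seq are the authors' values for 2 samples joined and carry no spread. The assignment of columns to runs came from the study's methods.

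Changes were log2 ratios of 2 columns with no pseudocount, computed with Python 3.11.15, pandas 2.3.3 and numpy 2.4.6, and figures were drawn with matplotlib 3.10.9. Genes with a mean of at least 2 FPKM were kept (for TE in both assays). A call needed a 2-fold difference. Genes named were a fixed set of 9, the 3 largest rises and falls in RNA and the 2 largest in TE a comparison among genes with a mean of at least 10 FPKM. Others were named by role or because they were called against both proliferating columns, after their values were seen. Alternatives were a minimum mean of 10 FPKM or none, 1 FPKM added, centring on the median of all genes, the control of the other run, both controls (added after seeing the data), and grouping Ribo-Seq samples S and C3 by condition tag. One item of the transformed cells' design and its check are not reported here.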

Additional observations from a re-analysis of the deposited data

Results flagged for a closer look

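These genes changed at least 2-fold in opposite directions in a pair of conditions of the same run. The differences were not tested, since each condition has 1 column, and values are differences between the log2 changes. Between Q and preS, both against C12, DCN differed by 4.49 in RNA (1.58 in Q, -2.91 in preS) and by 4.11 in Ribo-Seq. LUM differed by 4.23 in RNA and by 4.0 in Ribo-Seq. Between S and Tr, both against C3, COL6A1 differed by -3.27 in RNA and -2.87 in Ribo-Seq, and COL6A2 by -3.52 and -3.19. COL5A3 differed by -3.53 in RNA (-2.47 in S, 1.06 in Tr). At the Ribo-Seq level COL7A1 differed by -2.87, and COL4A5, higher in S and lower in Tr, by 2.65.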

How the results depend on the processing

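No paired analysis was possible because the columns carry no replicate numbers and each condition has 1 column a run. For the same reason no replicate could be left out. Against the control of the other run the median log2 changes in RNA were -0.63 in Q, -1.45 in preS, -0.54 in S and 0.44 in Tr, so that Q and Tr reversed. In Ribo-Seq they were -0.59, -1.09, 0.0 and 0.26, where Q and Tr reversed, and the TE median of Tr turned to 0.02. With that control, RNA calls (higher and lower) were 3 and 17 in Q, 2 and 28 in preS and 12 and 8 in Tr, with 16 lower in S. Ribo-Seq calls were 4 and 13 in Q, 13 and 10 in S and 15 and 3 in Tr, with 26 lower in preS. TE calls were 3 and 2 in Q, 13 and 0 in S and 1 and 0 in Tr, with 3 lower in preS. The cause was not tested, but C3 and C12 differ in these genes. Log2 changes of single genes that reversed with it were, in Q, COL1A1 (-1.69) and COL1A2 (-1.38) in Ribo-Seq and DCN (-0.99) and LUM (-0.61) in RNA. In S they were COL1A2 in RNA (0.47) and Ribo-Seq (1.17) and COL7A1 in TE (0.4), and in Tr COL1A1 in Ribo-Seq (1.22), COL1A2 in RNA (1.0) and Ribo-Seq (1.12) and COL3A1 in Ribo-Seq (0.83).

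Required against both controls, RNA calls were 1 higher in Q, 1 higher and 15 lower in S and 4 lower in Tr. Ribo-Seq calls were 3 higher in Q, 2 higher in preS, 10 lower in S and 3 lower in Tr. TE calls were 0 higher in Q and in preS and 0 lower in S and in Tr. A mean of at least 10 FPKM, which tests fewer genes, left 3 higher in Q in RNA, 2 higher in preS in Ribo-Seq, and in TE 3 higher in Q, 2 higher in preS, 1 lower in S and 0 lower in Tr. With 1 FPKM added, 0 were lower in Q in RNA, and in TE 1 was higher in preS and 1 in Tr. Centring on the median of all genes, which had moved by -0.12 in Ribo-Seq and -0.15 in TE in preS, turned the Ribo-Seq median in preS to 0.06 and gave 8 higher in TE. With no filter, collagens minus enzymes in preS in Ribo-Seq turned to 0.05 and collagens minus glycoproteins to 0.01. Grouping S and C3 in Ribo-Seq by condition tag turned the median in S to 1.25 and its TE median to 2.4. Of 254 values for groups of genes under an alternative, 197 stayed close to the main value, 29 were weaker, 14 stronger, 9 reversed and 5 moved. For a median or a difference of medians, close meant no change of sign and a shift below the median SD given next. For a count it meant a ratio to the main count within a fixed limit, whatever the 2-fold calls of single genes did. The median SD of the proliferating columns was 0.67 in RNA, 0.61 in Ribo-Seq and 0.31 in TE (log2), and changes of that order cannot be told from it.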

Other observations

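The subunit balance of prolyl 4-hydroxylase differed between columns. P4HB, the beta subunit that is also protein disulfide isomerase, had 474 to 856 FPKM of RNA where P4HA1 had 34.75 to 148 FPKM. The ratio of P4HA1 to P4HB RNA was 0.0696 in C12, 0.105 in Q and 0.0816 in preS, and 0.179 in C3, 0.253 in S and 0.056 in Tr. At the Ribo-Seq level the highest ratio was again in S, at 0.324, and the lowest in Tr, at 0.0729. The ratio of COL4A1 to COL4A2 RNA lay between 0.446 and 0.847, and at the Ribo-Seq level S was the one column where COL4A1 exceeded COL4A2, with a ratio of 1.17.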
